A study of Arabidopsis thaliana with 119 samples.

Results

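Rosettes of the Arabidopsis thaliana accession Cvi-0 were compared by RNA-seq between a drought regime and full supply, in 6 libraries each. These 12 belong to a study of 5 accessions under 4 treatments, with 6 libraries in each of its groups except 1 group of 5. The libraries were picked out by their titles, as the Cvi-0 libraries of W-N+ (drought) and of W+N+ (control), and every expressed gene was described. This choice was made with earlier results of these data known. Cvi-0 is a natural inbred line from the Cape Verde Islands. All plants grew in 8-h days, stood for 23 days on a Phenoscope, an automated platform for weighing and watering single pots, and were harvested 31 days after sowing. In total, 160.45 ± 7.96 ml of a 5 mM nitrate solution went to each control plant and 50.85 ± 4.67 ml of it to each drought plant, by the labels. The drought plants thus also received less nitrate, about 254 µmol against 802 µmol as volume times concentration, so less water and less nutrient cannot be told apart in this contrast. Tags in the titles (P3ID33, P3ID34) are an experiment code whose meaning the labels do not give; each treatment has 3 libraries of each code. Whether replicates came from separate plants is not in the labels, and a p-value here therefore reflects variation among libraries, which may be technical.

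A plant that runs short of water makes more abscisic acid (ABA). ABA binds receptors of the PYR/PYL family, the bound receptors block clade A protein phosphatases 2C, and the kinases thus released activate bZIP factors (ABFs) that bind ABA response elements and switch on genes for dehydrins, compatible solutes and sugar metabolism. In leaves under mild, lasting drought, genes of nutrient supply, pathogen defence and cell wall growth are also known to respond, since water carries mineral nutrients to the root and leaf growth slows before the leaf wilts.

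Total counts ran from 15612251 to 41240316 per library over the 12. The rosette label was checked on marker genes: the summed level of 50 photosynthesis genes was 143050 to 245561 CPM (the count scaled to a common library size), 9 floral organ markers together stood at 0.643 to 2.32 CPM, and 11 root markers at 3.61 to 9.28 CPM, with 5 of the 11 at 0 in all 12 libraries. A single library stood apart. Control library c lay 0.713 log2 units (root mean square over genes) from its group mean, against 0.272 to 0.441 for the other 11, and by itself it made the first principal component, 33.3% of the variance. In that library 17 markers of the shoot apex and organ boundaries, a list added after the data were seen, summed to 202 CPM, against 52.8 to 107.7 CPM in the other 5 controls and 71.4 to 94.6 CPM in drought. Of the 17, 14 were higher there than in the other 5 controls. The exceptions were WUS, with no count in any of the 12 libraries, CLV3, at 0 in library c, and AIL6 (1.79 CPM, against 0.565 to 2.32 CPM). Most of the sum came from LSH4 (60.8 CPM) and CLV1 (59.5 CPM), and CLV1 reached 59.9 CPM in drought. STM, the homeobox gene that keeps the shoot meristem undifferentiated, was at 13.0 CPM in library c and at most 1.72 CPM in the other controls. The part of that marker difference in the results was not tested, and counts and named genes of the drought contrast are given with and without control library c where it bears on the call. In whole rosettes, fewer cells of a type and less RNA per cell cannot be told apart.

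Few of the genes tested passed as changed in drought in Cvi-0. A count of calls is no measure of the size of the response. Of 20025 genes tested, 325 (1.62%) passed an adjusted p of 0.05 in edgeR's quasi-likelihood test with Benjamini-Hochberg adjustment. Among them 132 genes (0.659%) were higher and 193 (0.964%) lower in drought. The count and its balance depended on the fit, with 686 calls by limma voom, 484 of them higher and 202 lower, 55 genes called in Cvi-0 drought from the 12 libraries alone and 725 without control library b. At the lowest, 162 genes were called when a library other than control c was left out. In the fit used here, 102 differed at least 2-fold, 22 of them higher and 80 lower. At an unadjusted p under 0.05 there were 3025 genes. Library c was the highest of all 12 libraries for 132 of the 193 lower genes and the lowest of the 12 for 87 of the 132 higher genes. With library c left out, 131 genes were called (0.655%), 74 higher (0.370%) and 57 lower (0.285%). With the same sign, 103 genes were shared, that is 103 of the 325 and 103 of the 131, of which 54 were higher and 49 lower. For 73 of these 103 the drought and control libraries did not overlap within either code, against 1.94% of all genes tested. The 103 were chosen by tests on these same libraries, which favours such separation, so this share is no separate support for the calls.

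**Figure D1:**
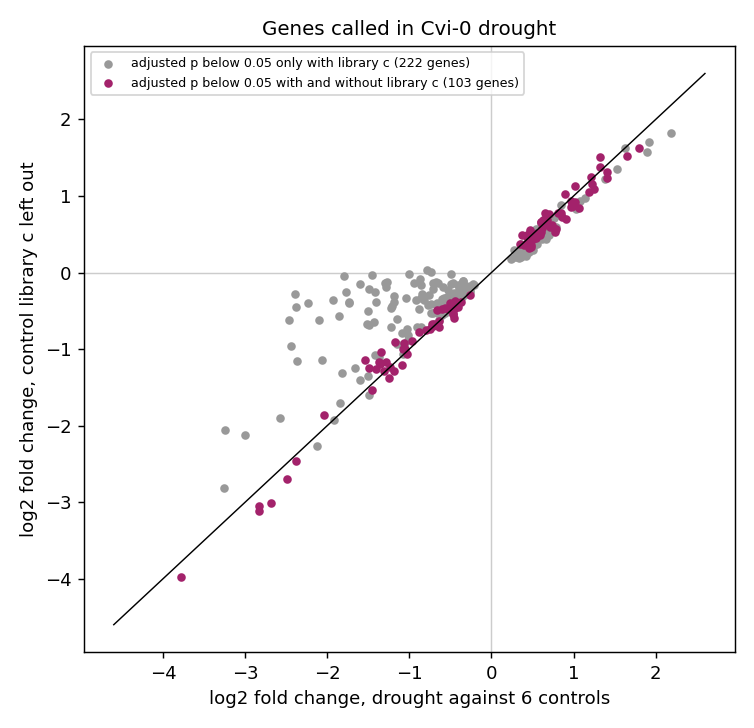
Log2 fold change in drought of the 325 genes called in Cvi-0, with all 6 controls (x axis) and with control library c left out (y axis). Colours separate the 103 genes called both ways from those called only with library c; AT1G62500 lies at -2.39 on the x axis and -0.28 on the y axis.

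Among genes that answer to dehydration and ABA, several rose in drought. Of 27 listed genes, 6 rose and 0 fell, where 0.659% of all genes tested rose. The median log2 change was 0.52, against -0.01 over all genes tested. Without library c, 5 rose, where 0.370% of all genes tested rose, and the median was 0.48. GOLS2 (AT1G56600), galactinol synthase of the raffinose pathway, whose products protect drying cells, had 2.04, 4.54 and 10.4 CPM as the lowest, median and highest control values and 13.4, 16.7 and 21.0 CPM in drought. Every drought library was above every control, a separation found for 145 of all genes tested (0.724%). The log2 fold change was 1.79 ± 0.26 (standard error of the fit, as for all fold changes here; adjusted p = 1.76e-06), and 1.63 without library c (adjusted p = 9.62e-05).

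RAB18 (AT5G66400), a dehydrin induced by ABA, stood at 0.914, 3.31 and 6.78 CPM (lowest, median, highest) in control and at 4.77, 9.03 and 13.7 CPM in drought. The groups overlapped over all 12 libraries but not within a code, where P3ID33 ran from 3.53 to 6.78 CPM in control and 10.5 to 13.7 CPM in drought. The change was 1.41 ± 0.23 on the log2 scale (adjusted p = 1.69e-05; 1.24 and 0.000616 without library c). RD20 (AT2G33380), a caleosin of lipid bodies long used as a drought marker, ran at 2.07, 4.99 and 7.37 CPM in control and at 5.84, 10.4 and 17.9 CPM in drought. It also differed by code, with controls of 6.20 to 7.37 CPM in P3ID33 and 2.07 to 3.78 CPM in P3ID34, and in each code the drought libraries were all above the controls. Its log2 change was 1.19 ± 0.20 (adjusted p = 6.02e-05; 1.06 and 0.00178 without library c). SUS3 (AT4G02280), a sucrose synthase, went from a median of 4.87 CPM to 9.71 CPM with no overlap between the groups (log2 change 0.96 ± 0.15, adjusted p = 1.69e-05; 0.000504 without library c). The other 2 members that rose, named to complete the count, were ATHB7, a homeobox factor induced by ABA (0.77 ± 0.16, adjusted p = 0.00126; 0.0188 without library c), and AFP3, a partner of ABA bZIP factors (0.70 ± 0.19, adjusted p = 0.0349; 0.141 without library c). Well-known members that did not pass included RD29A (log2 difference 0.31, adjusted p = 0.536) and RD22 (0.19, adjusted p = 0.434), both named here after their values were seen.

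**Figure D2:**
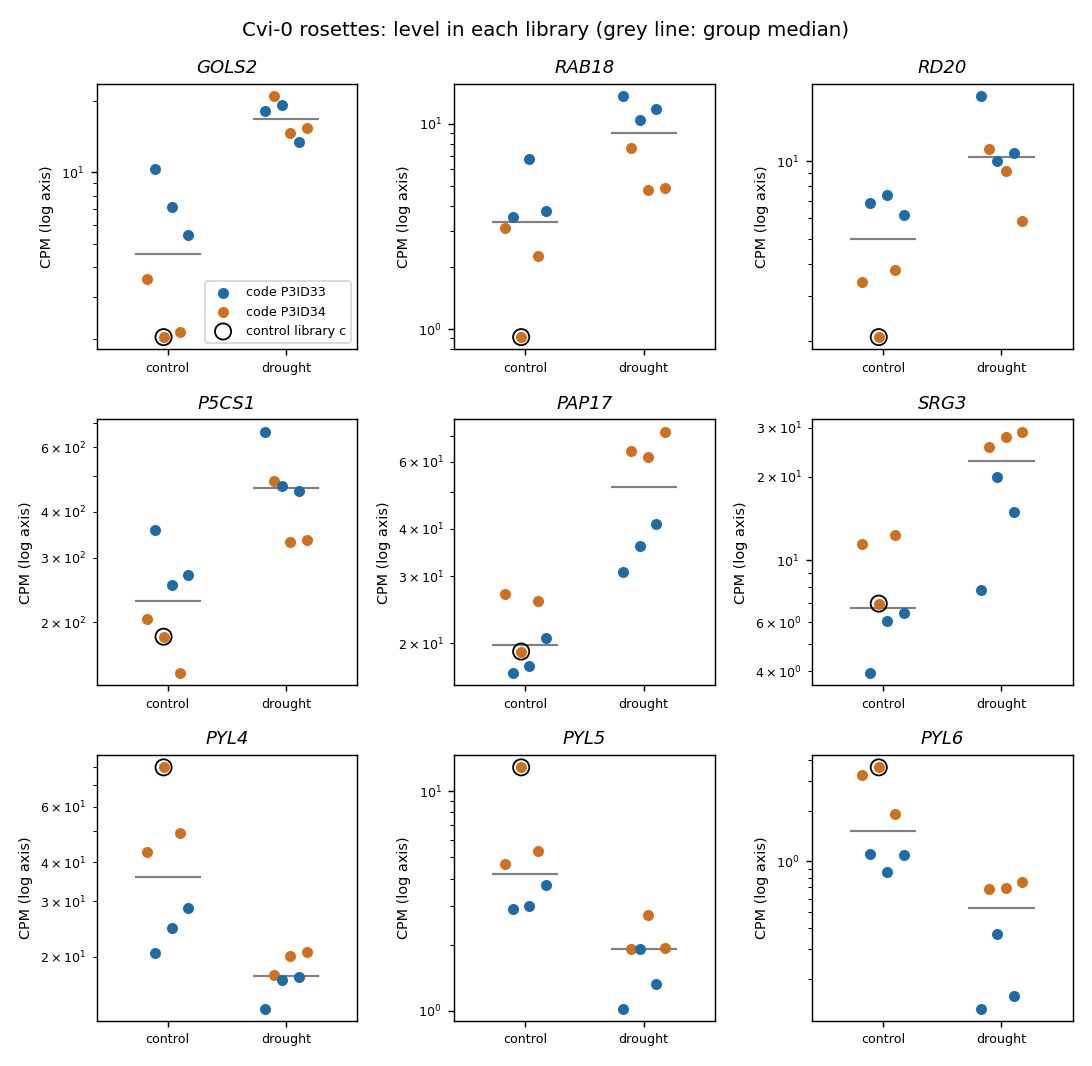
Level (CPM, log axis) of 9 genes in each of the 6 control and 6 drought libraries of Cvi-0, coloured by experiment code, with the group median as a grey line and control library c ringed. GOLS2, PAP17, PYL5 and PYL6 show no overlap between the groups, and for the other 5 genes the groups separate within each code.

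P5CS1 (AT2G39800), the enzyme that commits glutamate to proline, a solute that plants gather when they dry, was at 145, 228 and 356 CPM in control and 329.9, 463 and 662 CPM in drought. The groups overlapped only between codes. It rose by 0.97 ± 0.19 (adjusted p = 0.000984), and by 0.93 without library c (adjusted p = 0.00612). PRODH1, which breaks proline down, had a log2 difference of -0.47 ± 0.21 (adjusted p = 0.262), and of -0.20 without library c. Of the 8 tested genes in the list of proline and raffinose metabolism P5CS1 alone passed, against 1.62% called over all genes. GOLS2, also of the raffinose pathway, was counted in the dehydration list.

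Within the ABA pathway, 3 receptors fell while 2 phosphatases and 2 ABF factors rose. Over all genes tested 0.659% rose and 0.964% fell. Of 30 genes of ABA synthesis and signalling, 4 rose and 3 fell (2 and 3 without library c), with a median of 0.24 (0.16 without library c). All 3 that fell were receptors. PYL4 (AT2G38310) had 20.6, 35.9 and 79.9 CPM in control and 13.7, 17.36 and 20.7 CPM in drought. Only the lowest control touched the drought range, and within a code the groups were apart. Its log2 change was -1.18 ± 0.19 (adjusted p = 1.69e-05), and -0.91 without library c, the highest control (adjusted p = 0.00214).

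PYL5 (AT5G05440) was at 2.90, 4.19 and 12.8 CPM in control and 1.02, 1.91 and 2.72 CPM in drought, and PYL6 (AT2G40330), the least abundant of the 3, at 0.861, 1.51 and 3.62 CPM against 0.133, 0.527 and 0.759 CPM. For both receptors every drought library was below every control. PYL5 fell by 1.54 ± 0.24 on the log2 scale (adjusted p = 8.23e-06; 0.00221 without library c) and PYL6 by 2.04 ± 0.31 (adjusted p = 8.23e-06; 0.000356 without library c). The other 6 of 9 receptors tested did not pass, and the median of the 9 was -0.04. These sets by role were formed after the values were known.

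Downstream, 2 of 7 clade A phosphatases rose, against 0.659% of all genes tested. All 7 phosphatases had values above 0, from 0.19 to 1.38 on the log2 scale. PP2CA (AT3G11410), an inhibitor of ABA signalling that ABA itself induces, went from 39.2 to 70.6 CPM in control to 51.7 to 104 CPM in drought. Its groups overlapped, and the change was 0.47 ± 0.10 (adjusted p = 0.00126; 0.000380 without library c). HAI2 (AT1G07430) was at 0.281 to 1.08 CPM in control and 0.810 to 3.38 CPM in drought, a low-level gene that rose by 1.38 ± 0.33 (adjusted p = 0.0118) but missed the threshold without library c (adjusted p = 0.0816). Of 4 ABF factors, ABF2 and ABF3, named to complete the count, rose by 0.48 ± 0.10 (adjusted p = 0.00130; 0.0332 without library c) and 0.51 ± 0.11 (adjusted p = 0.00529; 0.0816 without library c). None of 6 genes of ABA synthesis passed, which at the 1.62% called over all genes is no result about them. Their log2 differences ran from 0.04 to 0.66.

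Against 0.659% of all genes tested, 9 of 20 tested phosphate starvation genes rose in drought. This set is switched on by the factor PHR1 when phosphate is short: phosphatases free phosphate, membrane phospholipids are replaced by sulfolipids and galactolipids, and small SPX proteins hold PHR1 in check. None of the 20 fell, and their median was 0.48. Without library c 5 rose, against 0.370% of all genes tested, and the median was 0.45. PAP17 (AT3G17790), a purple acid phosphatase, was at 16.7, 19.9 and 27.0 CPM in control and 30.7, 51.3 and 71.9 CPM in drought. No drought library reached down to a control, and the drought libraries split by code, 30.7 to 41.1 CPM in P3ID33 and 61.5 to 71.9 CPM in P3ID34. The log2 change was 1.23 ± 0.16 (adjusted p = 1.52e-07; 7.54e-06 without library c).

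SRG3 (AT3G02040), a glycerophosphodiester phosphodiesterase that salvages phosphate from lipid head groups, had 3.94, 6.73 and 12.3 CPM in control and 7.82, 22.7 and 29.1 CPM in drought. Its groups overlapped between codes only. The change was 1.40 ± 0.22 (adjusted p = 1.64e-05; 0.000356 without library c). All 3 SPX genes tested rose: SPX1 by 0.86 ± 0.19 (adjusted p = 0.00504), SPX2 by 0.59 ± 0.10 (adjusted p = 2.06e-05) and SPX3, at under 1 CPM in every library, by 1.89 ± 0.52 (adjusted p = 0.0369). SPX1 and SPX2 remained called without library c (adjusted p = 0.0495 and 0.000776), SPX3 did not (0.225).

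Members that act on membrane lipids followed. SQD2 (AT5G01220), which makes sulfolipid, rose from 91.4 to 116 CPM in control to 126 to 156 CPM in drought with no overlap (log2 change 0.44 ± 0.08, adjusted p = 0.000124; 0.00211 without library c). SQD1, the step before it, rose by 0.36 ± 0.10 (adjusted p = 0.0303; 0.149 without library c). PLDZ2, a phospholipase D of phosphate-starved membranes, rose by 1.14 ± 0.25 (adjusted p = 0.00414; 0.0505 without library c) and the pyrophosphatase PS2 by 1.03 ± 0.30 (adjusted p = 0.0466; 0.278 without library c). SPX1 and SQD1 are named to complete the count of 9.

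Promoters of RD20 and SRG3 are shown because each gene rose in a different group, RD20 among the ABA-responsive and SRG3 among the phosphate genes, and because both windows carry letters that the factors of both pathways are known to bind. Each is the 250 bases before the annotated gene start in the RefSeq TAIR10.1 assembly, which is the Col-0 genome and not that of Cvi-0, on the gene's own strand. Capitals mark the core of the ABA response element, ACGTG on either strand, and the PHR1 binding motif P1BS, GNATATNC, which reads the same on both strands. The RD20 window is chr2:14146556-14146805 (minus strand), with 3 matches to the ABA core, 2 of them the overlapping strands of CACGTG, and 1 P1BS match. The SRG3 window is chr3:350011-350260 (minus strand), with 1 match to the ABA core and 2 to P1BS.
RD20: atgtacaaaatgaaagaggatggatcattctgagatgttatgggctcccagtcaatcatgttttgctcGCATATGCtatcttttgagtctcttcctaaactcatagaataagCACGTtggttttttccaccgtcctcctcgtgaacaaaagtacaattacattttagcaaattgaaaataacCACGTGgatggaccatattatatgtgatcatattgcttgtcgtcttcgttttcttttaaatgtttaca
SRG3: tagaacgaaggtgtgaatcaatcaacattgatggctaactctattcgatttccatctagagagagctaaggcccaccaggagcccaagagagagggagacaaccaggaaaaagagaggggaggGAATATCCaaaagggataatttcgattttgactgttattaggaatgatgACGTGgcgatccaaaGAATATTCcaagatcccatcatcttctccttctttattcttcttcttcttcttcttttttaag
The 250 bases before GOLS2, PAP17 and SPX1 held neither motif. Those before RAB18 held 3 matches to the ABA core and no P1BS match, and they overlap a neighbouring gene. Among all 19921 tested genes with such a window, 23.2% held the ABA core and 5.46% P1BS; among the 132 called higher in Cvi-0 drought the shares were 26.5% (35 genes) and 12.1% (16 genes), and among 192 called lower 19.3% (37) and 8.85% (17). A match describes these letters and is no sign that a factor was bound.

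Genes outside the lists were among the largest rises. CSLG3 (AT4G23990), a cellulose synthase-like protein, went from 9.73, 16.4 and 20.3 CPM in control to 28.4, 32.7 and 36.4 CPM in drought. The groups were well apart, and the change of 1.02 ± 0.11 had an adjusted p of 1.84e-10 (2.03e-08 without library c). AT3G44970, a cytochrome P450 of no assigned substrate in the annotation, was at 1.79, 3.52 and 4.52 CPM in control and 5.55, 8.53 and 12.7 CPM in drought. It likewise showed no overlap, and it rose by 1.32 ± 0.15 (adjusted p = 1.84e-10; 1.14e-09 without library c). The nudix hydrolase NUDT24 (AT5G19470) rose by 1.24 ± 0.22 (adjusted p = 7.91e-05; 0.00211 without library c), from 8.50 to 31.6 CPM in control to 29.3 to 70.5 CPM in drought, the groups overlapping between codes only.

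NAP (AT1G69490), a NAC factor that promotes leaf senescence, ran at 2.00, 3.33 and 7.96 CPM in control and 3.43, 8.72 and 14.3 CPM in drought. Its groups overlapped even within code P3ID33, and the change was 1.07 ± 0.22 (adjusted p = 0.00203; 0.0341 without library c). NYE2, which takes part in chlorophyll breakdown, rose by 0.71 ± 0.19 (adjusted p = 0.0323; 0.192 without library c). These 2 were the only called members of 21 senescence and autophagy genes tested, against 1.62% called over all genes. Of 25 genes of starch and sugar transport, AMY1, an alpha-amylase, and APL4, a subunit of the enzyme that makes the starch precursor ADP-glucose, rose by 0.67 ± 0.18 (adjusted p = 0.0337) and 0.61 ± 0.17 (adjusted p = 0.0477), and neither passed without library c (0.240 and 0.323). AT1G48100, of the pectin lyase-like family, rose by 1.21 ± 0.28 (adjusted p = 0.00796; 0.0212 without library c).

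Some of the largest falls held without library c. AT1G27020, a protein of unknown role, was at 4.34 to 5.27 CPM in the P3ID33 controls and 14.7 to 22.1 CPM in those of P3ID34, against 1.64 to 2.32 CPM and 6.04 to 9.34 CPM in drought. In each code drought was lower, and the log2 change was -1.23 ± 0.21 (adjusted p = 5.32e-05; 0.000356 without library c). AT4G21870, of the HSP20-like chaperone family, had 3.42, 8.65 and 14.1 CPM in control and 2.43, 3.09 and 3.88 CPM in drought, apart within each code (log2 change -1.41 ± 0.24, adjusted p = 4.75e-05; 0.00111 without library c). AT5G64120, a peroxidase of the cell wall family, changed by -1.37 ± 0.28 (adjusted p = 0.00126; 0.0212 without library c). EARLI1 (AT4G12480), a lipid transfer-like protein linked to systemic defence, ran at 8.44, 13.1 and 36.6 CPM in control and 2.27, 6.04 and 16.8 CPM in drought. Its highest control was replicate e, far above the other 5, and its groups overlapped; it changed by -1.25 ± 0.31 (adjusted p = 0.0138; 0.0115 without library c). LHY, a morning factor of the circadian clock, fell by 0.47 ± 0.13 on the log2 scale (adjusted p = 0.0349, and 0.0242 without library c). It was the only called gene of 16 clock genes tested, against 1.62% called over all genes. The labels give no hour of sampling.

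Several other large falls were not called without control library c, and for some the fold itself shrank towards 0. AT1G62500, of the lipid transfer family, was at 91.3 CPM in library c, 1.81 to 11.5 CPM in the other 5 controls and 2.14 to 7.53 CPM in drought. Only library c lay outside the drought range, and the log2 change went from -2.39 ± 0.47 (adjusted p = 0.00106) to -0.28 (adjusted p = 0.940) without it. LSH4 (AT3G23290), a boundary gene of the shoot apex and itself 1 of the 17 added markers, was at 60.8 CPM in library c and 3.22 to 17.7 CPM in the other controls, and went from -1.28 ± 0.31 (adjusted p = 0.0138) to -0.12 (adjusted p = 0.962). The peroxidase AT5G58390 went from -1.49 ± 0.36 to -0.69 (adjusted p = 0.642), and the nitrate transporter NRT1.8, at 6.89 CPM in library c, from -2.58 ± 0.58 (adjusted p = 0.00540) to -1.90 (adjusted p = 0.178). A further 4 genes of the 12 largest falls, EXT4, a wall extensin, NIT2, a nitrilase, PUP18, a purine permease, and AT2G30930, missed the threshold without library c but kept most of their fold. Their log2 values were -1.50, -1.60, -1.37 and -1.15 with all libraries and -1.35, -1.40, -1.10 and -0.94 without library c (adjusted p from 0.0590 to 0.192). CYP735A2, which makes trans-zeatin cytokinins, fell only with library c in (-1.74 ± 0.48, adjusted p = 0.0370; -0.39 and 0.938 without it).

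Calls among wall and water channel genes also changed without library c, although several genes kept most of their fold. Of 33 expansin and xyloglucan enzyme genes, which loosen and remodel the cell wall as leaves expand, 8 fell and 1 rose with all libraries. Over all genes tested 0.964% fell and 0.659% rose. None of the 33 passed without library c, where 0.655% of all genes were called. Their median went from -0.25 to -0.09. XTH4 (AT2G06850) was at 379 CPM in library c, 124 to 259 CPM in the other controls and 89.3 to 185 CPM in drought. Within each code the drought libraries were lower, and the log2 change was -0.71 ± 0.16 (adjusted p = 0.00493), or -0.53 (adjusted p = 0.114) without library c. XTH9 went from -0.76 ± 0.20 to -0.29, XTH27 from -0.56 ± 0.14 to -0.43, XTH30 from -1.02 ± 0.26 to -0.82 and XTH33 from -1.82 ± 0.51 to -1.32 (adjusted p from 0.197 to 0.766 without library c). XTH30 and XTH33 were low, at 0.592 to 2.26 CPM and 0.323 to 5.73 CPM in control. Of 24 aquaporins 3 fell with all libraries, TIP2;1 of the vacuole (-0.78 ± 0.18), PIP1;5 (-0.38 ± 0.08) and PIP1;4 (-0.37 ± 0.10) of the plasma membrane. None of these 3 passed without library c, where their values were -0.42, -0.29 and -0.18. PIP2;2, named after its values were seen, was called in the other direction once library c was left out (0.39, adjusted p = 0.0242), against 0.26 with all libraries (adjusted p = 0.171). The median of the aquaporins moved from -0.15 to 0.13, and that of 26 cell division genes from -0.15 to 0.15. None of these 26 was called either way, against 1.62% of all genes tested with all libraries and 0.655% without library c.

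**Figure D3:**
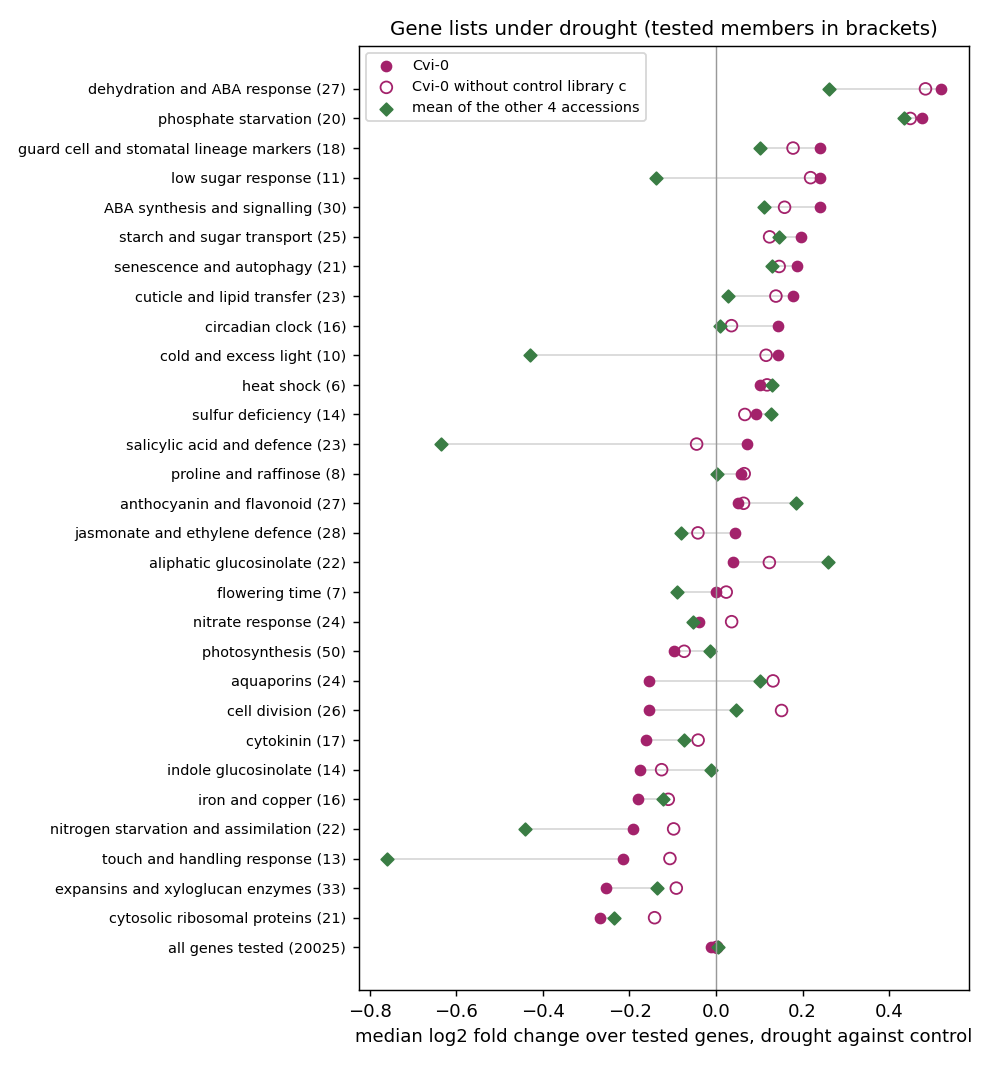
Median log2 change in drought of each gene list with at least 6 tested members, for Cvi-0 (filled circles), for Cvi-0 without control library c (open circles) and for the mean of the other 4 accessions (diamonds). Dehydration and phosphate genes lie highest in Cvi-0, salicylic acid and touch genes lie at -0.64 and -0.76 in the other accessions and at 0.07 and -0.21 in Cvi-0, and aquaporins and cell division genes change sign when library c is left out.

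Cvi-0 was set beside the mean of Col-0, Bur-0, Sha and Tsu-0 in the same contrast, which called 4343 genes (21.7%). It rests on more libraries, so counts of calls are not comparable between the 2. In single accessions, tested alike in the same fit, 1236 genes were called in Col-0, 654 in Bur-0, 344 in Sha and 1172 in Tsu-0. The count for Cvi-0 was 325. Of the 103 genes called in Cvi-0 with and without library c, 101 had the same sign in that mean and 92 were called there. Among 263 nuclear genes that changed at least 2-fold in the other 4, Cvi-0 had the same sign for 213 (227 without library c), and its median change in their direction was 0.42 (0.49 without library c), against 1.25 in the 4 themselves. These genes were chosen by their change in the other 4, which favours a smaller value in the accession left out. Handled the same way, each against the 4 others, Col-0 had a median of 1.16, Bur-0 1.18, Sha 0.76 and Tsu-0 1.299; no test was made between these medians.

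**Figure D4:**
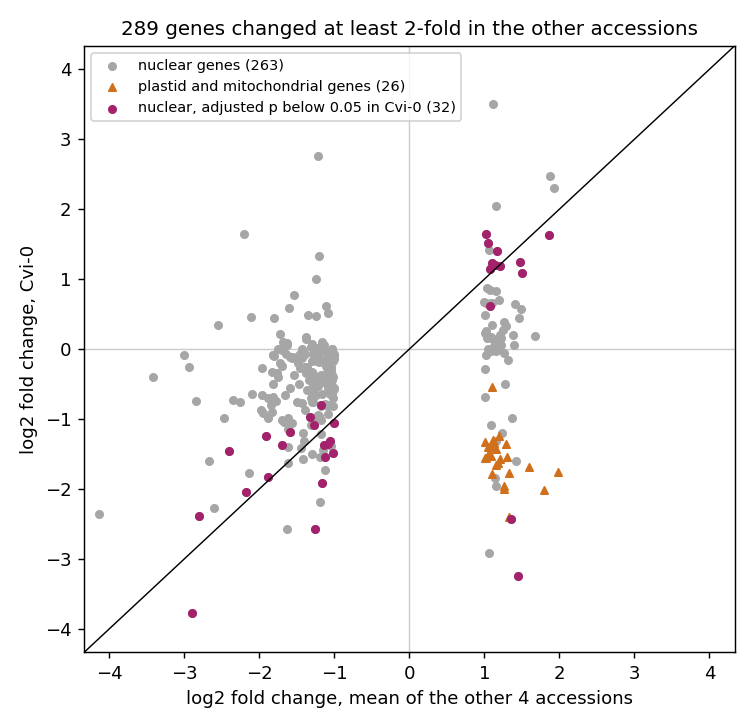
Log2 change in drought of 289 genes that changed at least 2-fold in the mean of the other 4 accessions (x axis) and in Cvi-0 (y axis), with the line of equal change. Of the 263 nuclear genes 213 have the same sign on both axes, and the 26 plastid and mitochondrial genes all lie below 0 in Cvi-0.

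The test of the difference called 124 genes (0.619%), 24 higher and 100 lower in Cvi-0 than in the others. Without library c 21 were called, all of them among the 124, and 9 of the 21 were plastid or mitochondrial genes. With another library left out the lowest count was 24. AT1G62290, just under the 5 CPM minimum for naming and named after its values were seen, had the lowest p (-0.59 against 0.75, difference -1.35, adjusted p = 4.02e-05; 0.00385 without library c). Among genes above that minimum AT3G44970 and BGLU1 had the lowest adjusted p. For AT3G44970 the rise of 1.32 in Cvi-0 exceeded the 0.33 of the other 4 by 0.99 ± 0.18 (adjusted p = 0.00187; 0.00385 without library c). The beta-glucosidase family gene BGLU1 (AT1G45191) stayed at 20.7 to 29.8 CPM in control and 20.9 to 26.04 CPM in drought in Cvi-0, a log2 value of 0.00, against a rise of 0.67 in the other 4 (difference -0.67 ± 0.13, adjusted p = 0.00187; 0.00385 without library c). CYP96A15 (AT1G57750), a hydroxylase of wax alkanes, had 4.57 to 9.84 CPM and 5.23 to 10.5 CPM in Cvi-0, against a rise of 1.40 in the others (difference -1.34 ± 0.29, adjusted p = 0.0144; 0.0243 without library c). These 2 genes thus showed no separation of the groups in Cvi-0 while they rose elsewhere. NAC102, a stress NAC factor, and AT1G05540, of unknown role, differed by 0.66 ± 0.13 (adjusted p = 0.00500) and -0.71 ± 0.14 (adjusted p = 0.00477), with values of 0.30 and -0.33 in Cvi-0 against -0.36 and 0.38, and both were called without library c (adjusted p = 0.0369 and 0.0243). The other 5 of the 10 genes of lowest p above that minimum lost the call without library c. They were RAB18, which rose by only 0.35 in the other 4 (difference 1.07 ± 0.25, adjusted p = 0.0232; 0.143 without library c), and AT1G62500, LSH4, LSH1 and the channel NIP6;1, in all 4 of which library c was the highest control.

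Of 23 salicylic acid and defence genes 0 were called in Cvi-0, which at the 1.62% called over all genes is no result about this list. The median there was 0.07 (-0.04 without library c). Of the 23, 19 fell and 1 rose in the mean of the other 4, with a median of -0.64. Over all genes tested 11.7% fell in that mean. PR1, the standard salicylic acid marker, was at 26.1, 74.4 and 202 CPM in control and 11.6, 42.04 and 121 CPM in drought in Cvi-0. The groups overlapped widely (log2 difference -0.98 ± 0.51, adjusted p = 0.349; -1.20 and 0.462 without library c), and the difference from the other 4 was 0.90 ± 0.58 (adjusted p = 0.610). ALD1, which makes pipecolic acid for systemic resistance, was the only member whose change differed by test (1.00 against -1.24, difference 2.24 ± 0.60, adjusted p = 0.0490; 0.113 without library c), at 0.452 to 3.97 CPM over the 12 libraries. Of 13 touch and handling genes 0 were called in Cvi-0, which at the same 1.62% is again no result about the list. Their median was -0.21 (-0.11 without library c). In the mean of the other 4, where 11.7% of all genes tested fell, 10 of the 13 fell (median -0.76). No member differed by test.

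Of 27 anthocyanin and flavonoid genes 1 rose in Cvi-0, where 0.659% of all genes tested rose. In the mean of the other 4, where 2007 of the 20025 genes tested rose, 16 of the 27 did. That mean rests on more libraries, so the counts are not comparable. The change of 2 members differed by test, neither of them without library c. PAP1 (AT1G56650), the MYB factor that switches on the late pathway, was at 0.508, 1.78 and 3.17 CPM in control and 3.07, 5.11 and 8.84 CPM in drought. Its groups were apart within each code, and it rose by 1.65 ± 0.30 (adjusted p = 0.000253; 0.00335 without library c), against 1.02 in the other 4 (difference 0.62 ± 0.33, adjusted p = 0.482). PAP1 was that 1 called gene. The 6 late genes DFR, LDOX, TT19, UF3GT, UGT75C1 and the flavonoid 3'-hydroxylase F3-H, named after their values were seen, had log2 values of at most 0.38 in Cvi-0 and from 1.04 to 1.38 in the other 4. The difference was called for F3-H (-1.18, adjusted p = 0.00803) and LDOX (-1.06, adjusted p = 0.0215), and for neither without library c (adjusted p = 0.0593 and 0.276).

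Aliphatic glucosinolate genes make the methionine-derived mustard oil precursors. Of 22 tested 2 rose in Cvi-0, where 0.659% of all genes tested rose. In the mean of the other 4, where 2007 of the 20025 genes tested rose, 20 of the 22 did. These counts are likewise not comparable. The medians were 0.04 in Cvi-0 (0.12 without library c) and 0.26 in the other 4, and no member differed by test. MAM3 (AT5G23020), of side-chain elongation, rose by 0.50 ± 0.10 (adjusted p = 0.00196; 0.0249 without library c) and CYP79F2 by 0.35 ± 0.09 (adjusted p = 0.0168; 0.0245 without library c), both with no overlap between the 12 libraries. Each has a close copy, MAM1 and CYP79F1, so their counts are uncertain. Ribosomal protein genes had a median of -0.27 in Cvi-0 (-0.14 without library c) and -0.24 in the other 4. Of 21 tested 0 were called in Cvi-0, which at the 1.62% called over all genes is no result about this list. Among the 21, 15 fell in the other 4, where 11.7% of all genes fell. Among 18 guard cell and stomatal lineage markers MPK12 alone rose, against 0.659% of all genes tested. Its change was 0.30 ± 0.08 (adjusted p = 0.0331, and 0.169 without library c). The 18 together stood at 4529.5 to 7764 CPM in control and 6259.9 to 7488 CPM in drought.

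Organelle transcripts had lower fitted values in drought as a whole, though hardly any passed singly and the groups overlapped. All 103 plastid and mitochondrial genes tested had log2 values below 0 in Cvi-0, with a median of -1.36 (-1.58 without library c), against 0.70 in the other 4. As differences of mean log2 CPM within a code, a measure that is damped for low genes, the medians were -0.72 in P3ID33 and -0.80 in P3ID34. Of the 103 genes 1 was called in Cvi-0, which at the 1.62% called over all genes is no result about them. Organelle genes made up 16 of the 124 differences, all 16 lower in Cvi-0, where 0.619% of all genes were called. They made up 9 of the 21 differences called without library c. All organelle genes together held 0.0296% to 0.693% of all counts in the controls and 0.0239% to 0.132% in drought, the top value in control replicate d and the next at 0.166%. The medians of that share were 0.118% and 0.0641%. In P3ID33 the controls other than d held 0.0330% and 0.102%, against 0.0487% to 0.113% in drought. The part of replicate d in the log2 values was not tested. The share is a single value per library, so the 103 genes need not be separate observations. The libraries select polyadenylated RNA, which organelle transcripts mostly lack, and the part of that selection in these values was not tested.

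Levels under the other treatments of Cvi-0 are given side by side; all 3 stress contrasts share the same 6 controls, and the low-nitrate and combined contrasts were not refitted without library c. GOLS2 averaged 5.13 ± 3.24 CPM (SD, n = 6) in control, 16.9 ± 2.93 in drought, 58.4 ± 18.7 in low nitrate (W+N-, full water with 0.5 mM nitrate) and 33.6 ± 7.79 in both stresses (W-N-, low water with 1.5 mM nitrate). It was thus highest in low nitrate. RD20 averaged 4.95 ± 2.15, 10.8 ± 3.98, 6.02 ± 2.23 and 14.2 ± 5.28 CPM in the same order, high in both dry treatments. P5CS1 averaged 235 ± 74.7, 456 ± 122, 100.1 ± 27.6 and 382 ± 136 CPM, and fell in low nitrate (log2 change -1.22, adjusted p = 9.00e-08). PAP17 averaged 21.1 ± 4.36, 50.9 ± 17.0, 10.3 ± 1.17 and 18.6 ± 2.68 CPM, and SRG3 7.87 ± 3.28, 20.8 ± 8.28, 2.04 ± 0.402 and 1.78 ± 0.896 CPM. PAP17 fell in low nitrate (log2 change -0.995, adjusted p = 6.70e-07) and did not pass under both stresses (-0.17, adjusted p = 0.506). SRG3 fell in both low-nitrate treatments, with log2 changes of -1.83 (adjusted p = 1.63e-09) and -2.14 (adjusted p = 2.07e-10). PYL4 averaged 41.1 ± 22.0, 17.7 ± 2.52, 50.0 ± 17.2 and 18.98 ± 5.70 CPM, low in both dry treatments.

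**Figure D5:**
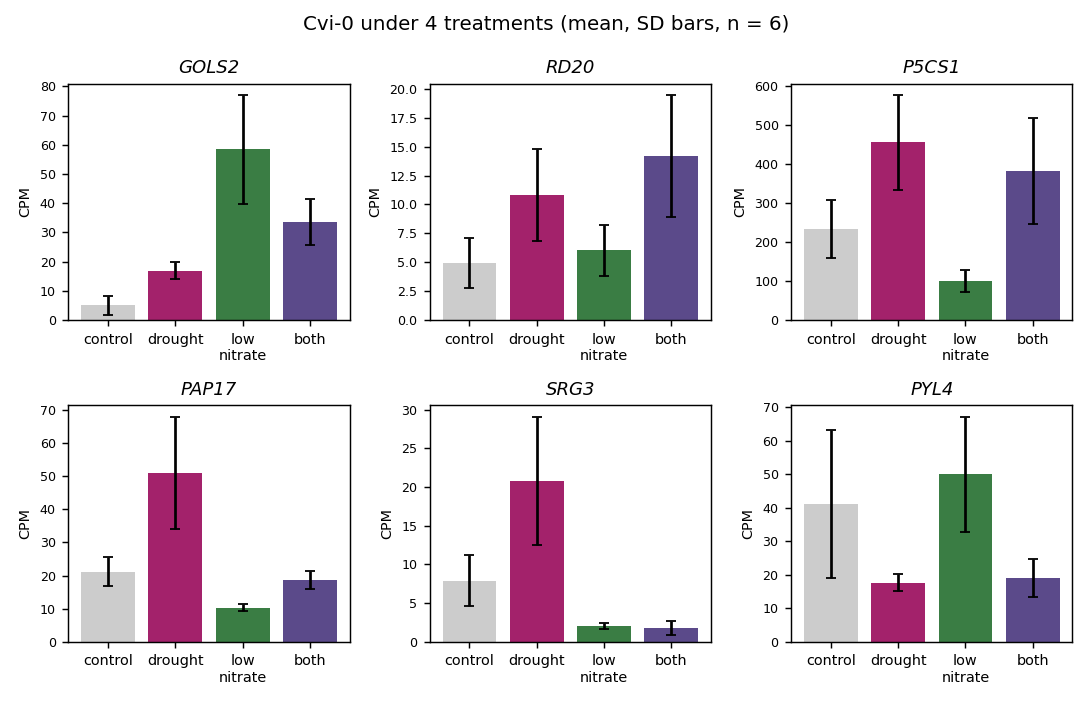
Mean CPM of 6 genes in Cvi-0 under control, drought, low nitrate and both stresses (bars; error bars are SD, n = 6 libraries). RD20 is high and PYL4 low in both dry treatments, P5CS1 is high in both and below control in low nitrate, and PAP17 and SRG3 have their highest mean in drought.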

How the data were processed

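The deposited table holds raw read counts per gene, from polyadenylated RNA by the labels' protocols (RNeasy Plant Mini kit, TruSeq Stranded mRNA kit). The submitters' processing notes name Trimmomatic 0.36 and HISAT2; for the counting tool, the strand setting and the genome build nothing is given in the sources used here, so reads of a gene and an antisense partner may not be separated. Counts of all libraries of the study were fitted together with edgeR 4.0.16 (R 4.3.3, quasi-likelihood test, TMM scaling, default filter on low counts, 20025 genes kept), with accession by treatment groups and the experiment code as terms. Contrasts were Cvi-0 drought against control, the same averaged over the other 4 accessions, and their difference; a gene was called at a Benjamini-Hochberg adjusted p under 0.05. The procedure was also run on simulated counts for the 12 libraries alone, with no code effect and no outlying library. That run therefore does not check the calls of the joint fit. The 12 libraries held 15612251 to 41240316 counts, and the median standard error of a log2 fold change was 0.149. No pair of replicates agreed within sampling noise (lowest mean chi-square per gene 4.35).

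The text draws its named genes, except where it says otherwise, from these: from the called genes whose sign was the same in both codes and whose mean reached 5 CPM, the 12 largest rises and 12 largest falls, the 10 of lowest p for the difference (same CPM minimum), and in each list the 4 of lowest p and any called member past 2-fold. The libraries, the 31 gene lists and the naming rule were chosen with earlier results of these data known. Alternatives used limma 3.58.1 and DESeq2 1.42.0, other filters, scalings and terms, and each library left out. Gene names are from RefSeq, which matched 32548 of 32833 IDs.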

Additional observations from a re-analysis of the deposited data

Results flagged for a closer look

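Groups of 6 libraries were tested for a value far from the rest by Dixon's test, which flags about 1 in 20 unselected groups by chance. Only genes named in the text were tested, some of them named through calls that were lost without library c. That rate need not hold for them. Of 124 groups tested 10 held such a value, and 8 of the 10 were control library c. In that library PYL5 stood at 12.8 CPM, XTH9 at 198 CPM, TIP2;1 at 647 CPM, NRT1.8 at 6.89 CPM and CYP735A2 at 2.74 CPM. LSH4 stood there at 60.8 CPM, LSH1 at 50.6 CPM and AT1G62500 at 91.3 CPM. The other 2 were EARLI1 at 36.6 CPM in control replicate e and FMO1, a defence monooxygenase, at 0.680 CPM in control replicate a.

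The change in Cvi-0 drought differed from that in the other 4 accessions, by the test of the difference, for 13 genes listed here. Among other genes named in the text, AT1G62290 (difference -1.35), AT5G58390 (-1.64) and STM (-3.03) were also called. Of the 13, the change was higher in Cvi-0 for AT3G44970 by 0.99, NAC102 by 0.66, RAB18 by 1.07 and ALD1 by 2.24 on the log2 scale. The difference was -0.67 for BGLU1, -0.71 for AT1G05540, -0.78 for NIP6;1 and -1.34 for CYP96A15. It was -2.37 for AT1G62500, -1.59 for LSH4, -1.10 for LSH1, -1.06 for LDOX and -1.18 for F3-H. Without control library c the calls of AT3G44970, BGLU1, AT1G05540, NAC102, CYP96A15 and AT1G62290 held. Of all 21 differences called without that library, 9 were plastid or mitochondrial genes.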

How the results depend on the processing

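The 325 genes called in Cvi-0 drought became 686 with limma voom (484 higher and 202 lower, 70.6% higher against 40.6%), 139 with no code term, 20 in P3ID33 and 625 in P3ID34 libraries alone, 55 in the 12 libraries alone (161 without control c, added after seeing the data) and 172 in the 24 Cvi-0 libraries alone. Leaving out a library gave 131 (control c) to 725 (control b), and 162 at the lowest for a library other than control c. Of these 12 settings 6 stayed within 1.5 times of the 325. Other scaling or filters, and DESeq2, stayed within 1.5 times. The 124 genes called in Cvi-0 drought minus other accessions became 53 with voom, 195 with DESeq2, 16 with no code term and 2 in P3ID33 alone. Alternatives added after seeing the data gave 13 (accession-specific code without control c) and 24 (voom with quality weights). For these differences, leaving out a library gave 21 (control c) to 328 (control e). The lowest for a library other than control c was 24. Of these 12 settings 2 stayed within 1.5 times of the 124. The 4343 genes called in drought averaged over the other 4 accessions became 2404 in P3ID33 and 2007 in P3ID34 alone, and 4318 to 4690 with a library left out. The causes were not tested. With quality weights AT1G62500 turned to 0.16 (difference 0.095), AT5G58390 to 0.12 and LSH4 to 0.070.

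Replicate letters were not used as pairs. Same-letter correlations of deviations from the treatment mean ran from -0.35 to 0.21. A letter has opposite codes in the 2 treatments and the code effect was left in, which lowers these values. They therefore cannot show whether letters pair the samples. With the letter as a replicate block the calls were 22 in the 12 libraries, and the differences 51 over all libraries.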

Other observations

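Several genes outside the lists were called with and without control library c; those given here were chosen after their values were seen. G3Pp1, of the glycerol-3-phosphate permease family, rose by 0.65 on the log2 scale (adjusted p = 2.37e-05) and GDPD5, of the glycerophosphodiester phosphodiesterase family, by 0.49 (adjusted p = 0.00228). The factors MYB102 and NF-YA7 rose by 0.98 (adjusted p = 0.00201) and 0.78 (adjusted p = 0.00126). ERD6, a sugar transporter gene first found as early responsive to dehydration, changed by -0.80 (adjusted p = 0.00540), PATL2, a patellin, by -0.97 (adjusted p = 0.000948) and GASA1, a gibberellin-regulated peptide, by -0.72 (adjusted p = 0.00392).

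The genes AT4G12490 and AT4G12500, with locus numbers next to that of EARLI1, fell by 3.78 ± 0.70 (adjusted p = 0.000437) and 2.39 ± 0.55 (adjusted p = 0.00640) at means of 0.552 and 1.27 CPM. AZI1 (AT4G12470), by its number also a neighbour, had a log2 difference of -0.55 (adjusted p = 0.229). These genes are close copies, so the split of reads between them is uncertain.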
